A study of Mus musculus with 18 samples.

Results

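The genes described here encode the proteins of the cytoplasmic ribosome. They were chosen by symbol: the protein-coding rows of the count table named Rpl or Rps followed by a digit, Rplp0, Rplp1, Rplp2 and Rpsa, without the Rps6k kinases. The rule gave 89 of 21995 genes. By role, 43 encode proteins of the large subunit, 31 proteins of the small subunit and 3 the stalk proteins, which makes 77 structural genes. A further 8 are paralogues of a structural gene (Rpl10l, Rpl22l1, Rpl36al, Rpl39l, Rpl3l, Rpl7l1, Rps27l and Rps27rt), and 3 carry pseudogene names (Rpl10-ps3, Rpl36a-ps1 and Rpl9-ps6). The last, Rps19bp1, encodes a protein that binds Rps19 and is no ribosomal protein. Fau and Rack1 also encode parts of the ribosome but lie outside the naming rule.

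The study sequenced whole-culture RNA from mouse embryonic stem cells (ESCs), in 6 groups of 3 libraries. The parental line was sampled undifferentiated (day 0) and after 2 and 6 days in retinoic acid. The line labelled Oct1_cKO, in which Oct1 was the target of a conditional knockout, was taken at the same 3 times. For the cells at days 2 and 6 the design text gives a 0.01% gelatin surface and retinoic acid at a final 1.5 µg/ml in DMEM, with non-essential amino acids, glutamine and antibiotics. It calls the plated cells depleted without saying of what. The labels give neither the driver of the deletion nor the number of clones behind each line, and nothing in them states that replicates are separate cultures. All p-values therefore measure library-to-library spread only, and that spread may be technical. In whole-culture RNA, fewer cells of a type and less RNA per cell cannot be told apart.

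As background, a ribosome joins a small subunit, which decodes the mRNA, to a large subunit, which forms the peptide bond, and the stalk of the large subunit recruits the elongation factors. Most structural proteins are present in about the same number per ribosome, and the genes of the family are scattered over the chromosomes. Their mRNAs share a start known as the 5′ terminal oligopyrimidine (5′TOP) motif, a C followed by a run of pyrimidines, through which mTOR and the RNA-binding protein Larp1 control their translation and stability. A few members have paralogues with a restricted range of tissues, several of them first known from testis or muscle.

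The start sequences are shown because this motif is what the family is known for, although most members lacked it at the annotated start. RefSeq (build GRCm38.p6) gave a promoter of 300 bases, from 250 bases before to 50 bases after the annotated start, for 66 of the 89 members, and 23 had no entry. A start at C followed by at least 4 pyrimidines, read on the gene's strand, was present in 14 of the 66 (21.2%) and in 813 of 27025 genes (3.01%). In the lines below, each sequence runs 5′ to 3′ over 30 bases with the annotated start as the sixteenth base, and capitals mark the pyrimidine run from the start on. The first 6 are among the 13 structural members with the motif, Rpl37a is 1 of 44 with an entry but without it, Rps27rt is a paralogue with it, and the last 3 are paralogues without it.
Rplp2, chr7:141447636-141447665, plus strand: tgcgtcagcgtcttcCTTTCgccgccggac
Rps6, chr4:86857353-86857382, minus strand: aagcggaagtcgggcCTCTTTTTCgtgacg
Rps27, chr3:90213634-90213663, minus strand: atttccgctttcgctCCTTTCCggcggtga
Rpl38, chr11:114668565-114668594, plus strand: agcggaagcctcgttCTTTCCCCgttctct
Rpl28, chr7:4792950-4792979, plus strand: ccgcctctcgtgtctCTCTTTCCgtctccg
Rps10, chr17:27635230-27635259, minus strand: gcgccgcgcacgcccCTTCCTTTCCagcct
Rpl37a, chr1:72711245-72711274, plus strand: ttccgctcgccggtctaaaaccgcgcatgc
Rps27rt, chr9:114982725-114982754, minus strand: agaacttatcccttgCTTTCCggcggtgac
Rpl39l, chr16:10170213-10170242, plus strand: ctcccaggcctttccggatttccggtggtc
Rpl10l, chr12:66284387-66284416, minus strand: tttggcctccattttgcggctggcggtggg
Rpl7l1, chr17:46782642-46782671, minus strand: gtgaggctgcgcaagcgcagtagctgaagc

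The octamer ATGCAAAT, the sequence that Oct1 is known to bind, was searched on both strands of the 300 bases and overlaps neither of the other motifs in letters. It was found in 0 of the 66 members and in 532 of 27025 genes (1.97%). No match says only that these letters are not in this window. Among the structural members with a promoter entry, 13 had the pyrimidine start and 44 lacked it. Their median log2 fold changes were 0.67 and 0.66 between the genotypes at day 2. From day 0 to day 6 in parental cells they were -0.90 and -0.88. This split goes by the annotated base alone. Rpl7a and Rpl27a, counted as without the motif, have an annotated start inside a run of pyrimidines. The split therefore cannot separate genes with and without a 5′TOP motif in their mRNA, and a part of that motif was not tested.

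The libraries held between 13694126 and 19296966 counts. Levels are given as CPM, a gene's count scaled to a common library size with trimmed mean of M-values (TMM) factors. Pou2f1, which encodes Oct1, lay at 124 to 135 CPM in parental libraries at day 0. In the cKO it lay at 87.2, 88.2 and 62.4 CPM, the last in replicate 3. The log2 fold change with that library included was -0.70 ± 0.10 (SE, n = 3 in each group, adjusted p = 1.35e-05). The difference was -0.78 ± 0.10 at day 2 (adjusted p = 2.79e-06), and the day 6 value was -0.60 ± 0.11 (adjusted p = 8.58e-05), so reads remained on the targeted gene in every cKO library. None of 10 pluripotency markers was at 0 in any group. Their summed level was 7341 to 7493 CPM in parental and 8413 to 9314 CPM in cKO libraries at day 0, then 1217 to 1270 and 2848 to 2988 CPM at day 2, and 52.0 to 56.7 and 213 to 217 CPM at day 6.

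The members' share of each library fell by day 6 in both lines. By day 2 it fell in parental cells, while in the cKO the libraries of days 0 and 2 overlapped. Parental libraries held 5.35%, 5.45% and 5.48% of their counts on the 89 genes at day 0, 4.66%, 4.81% and 4.72% at day 2, and 3.18%, 3.22% and 3.14% at day 6. The cKO libraries held 5.96%, 6.04% and 7.39% at day 0, 6.54%, 6.28% and 6.49% at day 2, and 3.39%, 3.14% and 3.12% at day 6. At days 0 and 2 every cKO library lay above every parental library, and at day 6 the groups overlapped.

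The mean share was 5.43% ± 0.0658 (SD, n = 3) in parental and 6.46% ± 0.805 in cKO cells at day 0. It was 4.73% ± 0.0726 and 6.44% ± 0.139 at day 2, a difference of 1.71 percentage points, and 3.18% ± 0.0392 and 3.22% ± 0.152 at day 6. With 3 libraries against 3, the 2-sided exact permutation test cannot go below p = 0.1. This exact test gave that value for 5 of the 7 comparisons (adjusted p = 0.14 over the 7) and p = 1.0 for cKO against parental at day 6 and for day 2 against day 0 in the cKO. The last of these rests on 1 library: with replicate 3 of the undifferentiated cKO left out, the day 2 share was 0.44 percentage points above that of day 0 instead of 0.0274 below it. In the plot of shares by library that replicate stands alone above its group.

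**Figure D1:**
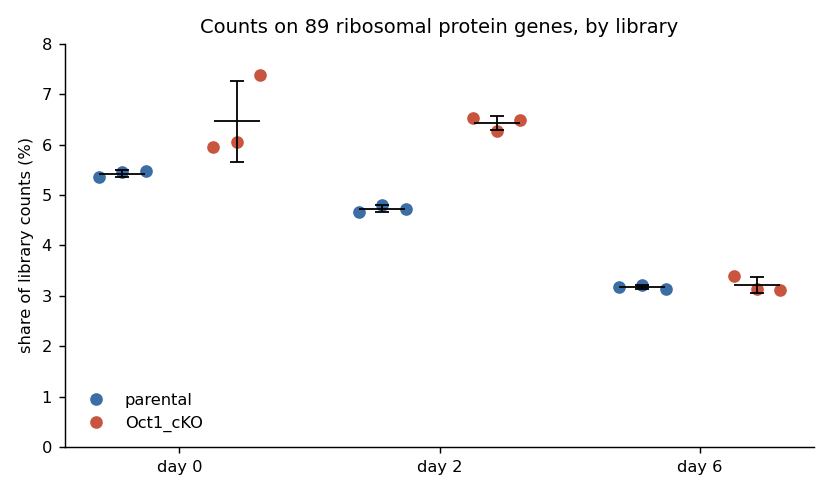
Share of each library's counts that fell on the 89 ribosomal protein genes (y axis, %), by day and line; points are libraries in replicate order, horizontal lines the mean and bars 1 SD (n = 3). The share ran from 5.35 to 5.48% in parental and from 5.96 to 7.39% in cKO libraries at day 0, and the lines overlapped at day 6.

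Replicate 3 of the cKO at day 0 differed from its group in nearly all of these genes. Of the 89 members, 85 had a mean log2 CPM of at least 1, and in all 85 that library was above both other replicates, by a median of 1.25-fold. Of all 13628 genes at that level, 6063 (44.5%) were above both and 5053 below both (median 1.02-fold). The 77 structural members were 0.19 to 0.63 higher on the log2 scale than the mean of the other 2 libraries. Mitochondrial ribosomal protein genes, which encode a separate ribosome, were above both in 73 of 77 cases (median 1.21-fold), and ribosome biogenesis genes in 27 of 35 (median 1.09-fold). Mitochondrially encoded counts, in contrast, made up 1.29% of that library against 1.44% and 1.41%. Counts and medians of members that include day 0 of the cKO are therefore also given without this library, an alternative added after the data were seen for the gene lists and the split by chromosome.

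At day 0, before retinoic acid, most members were higher in the cKO. With edgeR's quasi-likelihood test over all 18352 genes tested and Benjamini-Hochberg adjustment, 69 of the 88 members tested were called higher (adjusted p under 0.05) and 7 lower. Over all genes, 26.4% were called higher and 27.0% lower. Rpl36a-ps1 did not pass the filter on low counts, at 0 to 8 counts a library. The median log2 fold change of the 88 was 0.32. Without replicate 3 of the cKO, 60 were higher and 8 lower, against 24.0% and 25.3% of all genes, and the median was 0.19. Markers of other cell types differed in the same comparison: 8 of 10 fibroblast markers were lower and 0 higher (median -1.36), summing to 1204 to 1276 CPM in parental and 378 to 393 CPM in cKO libraries with none at 0. Of 10 trophoblast markers, 6 were higher and 1 lower (median 0.79), at sums of 78.3 to 83.7 and 74.0 to 85.7 CPM with Prl3d1 at 0 in both groups. Their part in the members' difference was not tested.

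All 3 stalk genes were higher at day 0. Rplp2, a stalk protein that contacts elongation factors, was at 754, 798 and 768 CPM in parental and at 970.1, 1046 and 1325 CPM in cKO libraries (log2 fold change 0.53 ± 0.10, adjusted p = 5.22e-04). Its cKO libraries all lay above the parental ones, as did those of Rplp0, the stalk's anchor (0.42 ± 0.05), and of Rplp1 (0.45 ± 0.10). All 3 were still called without replicate 3 of the cKO, at 0.38 for Rplp2, 0.32 for Rplp0 and 0.27 for Rplp1. In the small subunit 30 of 31 members were higher, with a median of 0.36, and 27 without that library (median 0.24). Rps19, the gene most often mutated in Diamond-Blackfan anaemia, rose from 513, 556 and 537 CPM to 718, 724 and 982 CPM (0.60 ± 0.09, adjusted p = 3.61e-05), and by 0.43 without that library. Rps25, needed for initiation at some viral internal ribosome entry sites (0.34 ± 0.05), and Rpsa, also described as a laminin receptor (0.38 ± 0.06), were higher with no overlap between the groups.

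In the large subunit 31 of 43 members were higher and 5 lower, with a median of 0.26, and 25 higher and 6 lower without replicate 3 (median 0.12). Rpl37a had the largest increase of the members above a mean log2 CPM of 1, from 321, 349 and 347 CPM to 449.8, 478 and 619 CPM (0.61 ± 0.10, adjusted p = 9.96e-05; 0.45 without replicate 3). Rpl5 and Rpl11, which carry the 5S rRNA and bind Mdm2, were not called, at 0.07 ± 0.09 and 0.22 ± 0.10. Among those called lower was Rpl26, which is known to bind the p53 mRNA, at 753, 764 and 793 CPM in parental and 557, 557 and 696 CPM in cKO libraries (-0.35 ± 0.06, adjusted p = 3.26e-06). Rps27a, which is made as a fusion with ubiquitin, was the 1 small-subunit member called lower, from 1023, 993 and 1079 CPM to 803, 811 and 992 CPM (-0.25 ± 0.06, adjusted p = 7.52e-04). Its groups did not overlap, but the highest cKO library lay less than 1 CPM below the lowest parental one.

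At day 2 the difference between the lines was wider. Of the 88 members, 82 were called higher in the cKO and 1 lower, against 33.7% and 33.6% of all genes. The median log2 fold change was 0.65, which is 1.57-fold. The groups did not overlap in 81 of the 82, and in 96.6% of all genes called higher. By role the medians were 0.68 for the large subunit, 0.66 for the small subunit and 0.77 for the stalk. The members lay close together: the middle 50% lay between 0.56 and 0.73, against -0.59 to 0.41 over all genes.

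Rpl12, which lies at the base of the stalk, was among the members with the largest increase at day 2. It was at 617, 638 and 618 CPM in parental and at 1106, 1140 and 1143 CPM in cKO libraries (0.86 ± 0.08, adjusted p = 2.26e-09). Rpl34, of the large subunit, was at 209, 216 and 213 CPM and at 381, 375 and 394 CPM (0.85 ± 0.05, adjusted p = 6.99e-17). Rps25 stood at 454, 459 and 454 CPM and at 821, 768 and 774 CPM (0.79 ± 0.05), and Rplp1 and Rplp2 differed by 0.79 ± 0.10 and 0.77 ± 0.10. Rpl5 (0.54 ± 0.09, adjusted p = 1.04e-04) and Rpl11 (0.70 ± 0.10, adjusted p = 2.59e-05), not called at day 0, were higher at day 2 with no overlap. The 5 members that were not called were Rpl10l, Rpl19, Rpl22l1, Rpl3l and Rps27a. The 1 member called lower was Rpl7l1, a paralogue of Rpl7, at 140.0, 141 and 136 CPM in parental and 124, 118 and 119.8 CPM in cKO libraries (-0.21 ± 0.04, adjusted p = 8.38e-05). Beside these values, all 10 pluripotency markers were called higher in the cKO at day 2 (median 1.14), and 6 of 10 fibroblast markers lower and 2 higher. The fibroblast markers summed to 202 to 219 CPM in parental and 115 to 143 CPM in cKO libraries, with none at 0 in a group. The part of other cell states in the members' difference was not tested.

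At day 6 the difference was smaller. Called higher were 55 of the 88 members and lower 9, against 36.7% and 37.8% of all genes, and the median log2 fold change was 0.25. None of the 55 overlapped between the groups, as was so for 97.1% of all genes called higher. When libraries were scaled by their totals alone, 25 members were higher and 16 lower, and the median of all genes itself moved to -0.19. Rps19 was at 437, 404 and 430 CPM in parental and at 684, 642 and 669 CPM in cKO libraries (0.65 ± 0.09, adjusted p = 6.54e-06), the largest increase of a structural member. Rplp1 and Rplp2 were each higher by 0.49 ± 0.10 and Rplp0 by 0.19 ± 0.05. Rps12 (0.55 ± 0.10, adjusted p = 7.62e-05) and Rps24 (0.53 ± 0.07, adjusted p = 7.32e-08), both of the small subunit, came next to it.

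Rps24, another gene mutated in Diamond-Blackfan anaemia, was at 421, 430.4 and 427 CPM in parental and 624, 600.1 and 619 CPM in cKO libraries at day 6, with no overlap. All 4 members on the X chromosome (Rpl10, Rpl36a, Rpl39 and Rps4x), which were called higher at days 0 and 2, were not called, at -0.04 to 0.16.

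The members called lower at day 6 included Rpl19, at 450.2, 466 and 438 CPM in parental and 386, 343 and 344 CPM in cKO libraries (-0.34 ± 0.07, adjusted p = 5.71e-05). Rps27a was at 582, 607 and 565 CPM and at 477, 436 and 420.3 CPM (-0.40 ± 0.06, adjusted p = 5.97e-07). Both sets of libraries were apart. Rpl22 (-0.16 ± 0.05, adjusted p = 0.00580) and Rpl10a (-0.17 ± 0.07, adjusted p = 0.0337) were lower too, but DESeq2 gave adjusted p = 0.108 and 0.184, within ranges of 2.06e-08 to 0.138 and 6.52e-06 to 0.29 over the alternatives. Marker lists differed between the lines at this time. Extraembryonic endoderm markers summed to 6439 to 6585 CPM in parental and 12020 to 13080 CPM in cKO libraries (8 of 10 higher, 2 lower), and trophoblast markers to 878 to 960.2 and 3376 to 3850 CPM (9 of 10 higher). Fibroblast markers summed to 4153 to 4459 and 493 to 597.5 CPM (7 of 10 lower, 1 higher), and none of these markers was at 0 in either group. Their part in the members' values was not tested.

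**Figure D2:**
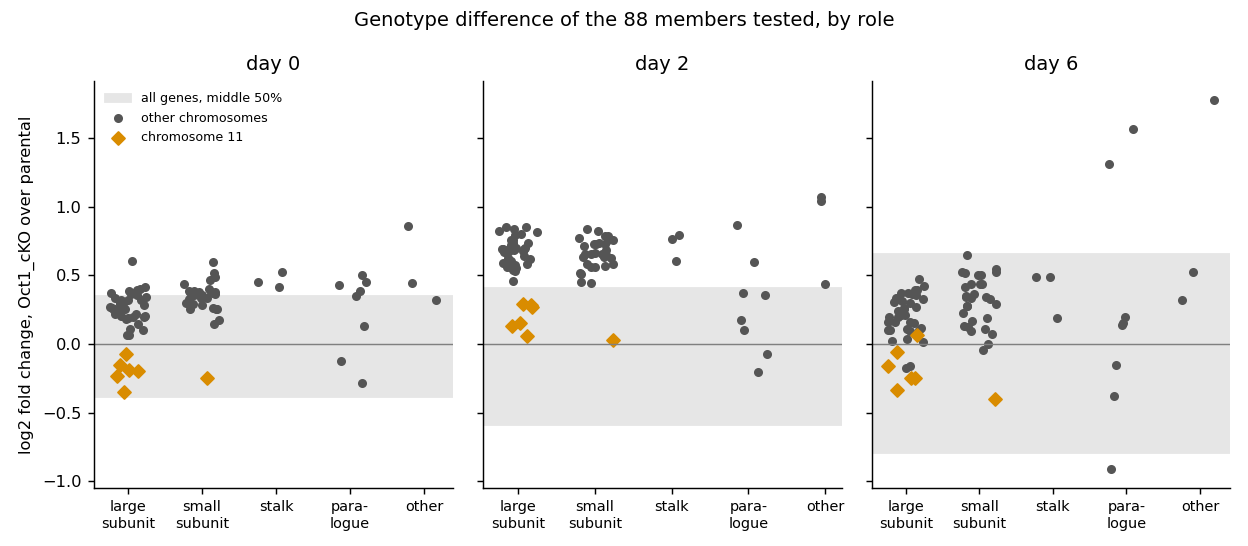
Log2 fold change of Oct1_cKO over parental (y axis) for each of the 88 members tested, by role, at days 0, 2 and 6; diamonds are the 7 members on chromosome 11 and the grey band the middle 50% of all genes tested. At day 2 the members on other chromosomes lie around 0.67 and those on chromosome 11 between 0.03 and 0.29.

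Members on chromosome 11 stood apart from the rest of the family between the lines. The 7 are Rpl19, Rpl23, Rpl23a, Rpl26, Rpl27, Rpl38 and Rps27a. At day 0, 6 of the 7 were called lower in the cKO (median -0.20), while 69 of the 81 tested members elsewhere were called higher and 1 lower (median 0.33). With that library left out, 7 of the 7 were lower (median -0.33), and 60 of the 81 higher and 1 lower (median 0.23). At day 2 the medians were 0.16 (5 of 7 higher) and 0.67, and at day 6 they were -0.24 (5 of 7 lower) and 0.28. By median, the chromosome at large was lower in the cKO at each time. Of its 979 genes at a mean of 5 CPM or more, 69.3%, 68.0% and 64.2% were called lower at days 0, 2 and 6. Their medians were -0.38, -0.37 and -0.39. Of the 10754 such genes elsewhere, 30.2%, 30.7% and 37.2% were called lower, with medians of 0.02, 0.10 and 0.09. At day 2 the 7 members differed in direction from their chromosome, with 5 called higher and 0 lower. Rack1, a small-subunit protein on chromosome 11 outside the naming rule, was lower at day 0 (-0.22 ± 0.05, adjusted p = 3.91e-04), higher at day 2 (0.23 ± 0.05, adjusted p = 1.31e-04) and not called at day 6 (0.01 ± 0.05, adjusted p = 0.906). The split by chromosome was made with earlier results of these data known and has no test.

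Rpl38, whose loss in mice is known for homeotic changes of the skeleton, followed the other chromosome 11 members at days 0 and 2 but was not called at day 6 (-0.06 ± 0.08, adjusted p = 0.510). It lay at 394, 412 and 413 CPM in parental and 306, 332 and 424 CPM in cKO libraries at day 0 (-0.20 ± 0.07, adjusted p = 0.0300). There replicate 3 of the cKO lay above all parental libraries, and the call was lost under 8 alternatives, DESeq2 among them (adjusted p = 0.0574, with 1.01e-10 to 0.167 over the alternatives). At day 2 it was at 278, 289 and 269 CPM and at 350.1, 329 and 341 CPM (0.29 ± 0.07, adjusted p = 0.00189; 6.64e-07 to 0.208 over the alternatives, with the call lost under scaling by library totals). Rpl26 was called higher at day 2 (0.13 ± 0.06, adjusted p = 0.0415), but with scaling by library totals it stood at -0.06 (adjusted p = 0.324) and DESeq2 gave adjusted p = 0.235, within 0.0239 to 0.324 over the alternatives. From day 0 to day 6 the chromosomes did not part in this way: in parental cells the median was -0.88 on chromosome 11 and -0.91 elsewhere, and in the cKO -0.89 and -0.97 (-0.78 and -0.87 without replicate 3 of day 0).

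**Figure D3:**
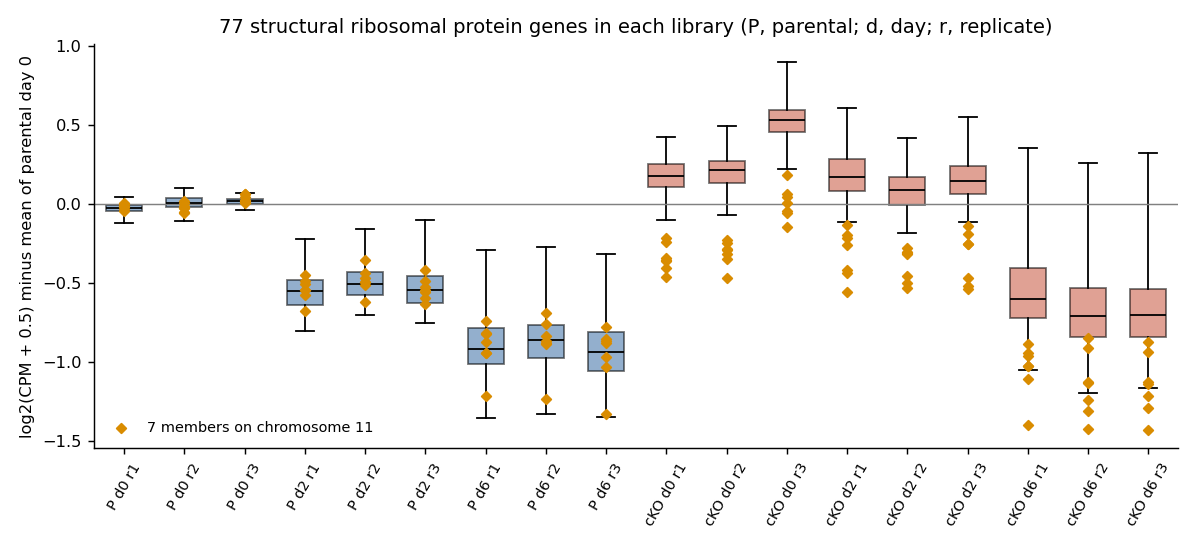
Level of the 77 structural members in each of the 18 libraries, as log2(CPM + 0.5) minus the member's mean in parental cells at day 0 (y axis); boxes show the 70 members on other chromosomes (median, middle 50%, lowest and highest) and diamonds the 7 on chromosome 11. Parental medians fall to about -0.54 and -0.92 at days 2 and 6, and replicate 3 of the cKO at day 0 has the highest median, 0.53.

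In parental cells the members fell together. By day 2, 83 of 88 were called lower and 0 higher, against 37.7% and 43.2% of all genes, with a median log2 fold change of -0.54. The 83 had no overlap between the days, nor had 97.8% of all genes called lower. By day 6, 87 of 88 were called lower and 0 higher, against 40.2% and 45.3% of all genes, with a median of -0.91, or 0.534 of the day 0 level. The median of all genes was 0.08 and 0.07. Both comparisons use the same day 0 libraries. All 43 large-subunit members were lower at both times, with medians of -0.55 and -0.90, and the small subunit had medians of -0.53 and -0.86. Scaling by library totals moved the median of all genes at day 2 to 0.42 and that of the members to -0.20, so relative to all genes the members stood at -0.62 under either scaling.

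Rplp1 had the largest decrease of a structural member by day 6 in parental cells. It fell from 1214, 1320 and 1251 CPM to 492, 500.2 and 501 CPM (-1.34 ± 0.10, adjusted p = 1.02e-08). Rps27 had the smallest fall of a structural member, from 371, 344 and 368 CPM to 293, 299 and 282 CPM (-0.31 ± 0.06, adjusted p = 2.57e-05). Rps19 fell nearly as little, from 513, 556 and 537 CPM to 437, 404 and 430 CPM (-0.34 ± 0.09, adjusted p = 0.00276), a call lost under scaling by library totals (adjusted p = 0.0608). Rps6, the substrate of S6 kinase, fell from 475, 472 and 501 CPM to 255, 275 and 249 CPM (-0.89 ± 0.06, adjusted p = 5.19e-17). Rps27rt, a near copy of Rps27 at 1.49 to 3.86 CPM over the 18 libraries, was the 1 member not called.

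In the cKO the members moved less by day 2 than in parental cells and about as far by day 6. By day 2, 47 of 88 were called lower and 2 higher, against 35.5% and 41.0% of all genes, with a median of -0.19. Without replicate 3 of day 0, 37 were lower and 10 higher, against 34.6% and 39.3% of all genes, and the median was -0.08. With scaling by library totals 17 were lower and 10 higher, and the median was -0.03 against 0.24 for all genes. By day 6, 86 of 88 were lower and 0 higher, against 40.4% and 41.4% of all genes, with a median of -0.97. Without replicate 3 of day 0 the counts were the same, against 39.4% and 39.7% of all genes, and the median was -0.86. The 2 members called higher at day 2 were Rpl22 (0.14 ± 0.05, adjusted p = 0.0140) and Rpl3 (0.16 ± 0.05, adjusted p = 0.00603). Both had libraries that overlapped between the days, and both calls were lost under DESeq2, at adjusted p = 0.174 (7.16e-07 to 0.21 over the alternatives) and 0.0966 (3.99e-07 to 0.118). Rps2, near the mRNA entry channel of the small subunit, had the largest fall of a structural member by day 6, from 2648, 2464 and 2935 CPM to 995, 899 and 918 CPM (-1.52 ± 0.05, adjusted p = 2.08e-25). Rps4x fell from 1435, 1436 and 1750 CPM to 652, 595 and 592 CPM (-1.33 ± 0.06, adjusted p = 2.98e-22). Rps19 had the smallest fall, from 718, 724 and 982 CPM to 684, 642 and 669 CPM (-0.28 ± 0.09, adjusted p = 0.00923), and -0.13 without replicate 3 of day 0.

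The change from day 0 to day 2 differed between the lines for most members. The interaction term, the change in the cKO minus the change in parental cells, was called higher for 66 of 88 members and lower for 2, against 30.1% and 26.9% of all genes, with a median of 0.35. Leaving out replicate 3 of the undifferentiated cKO gave 78 and 1, against 29.9% and 26.2% of all genes. With 1 library left out at a time, as few as 50 were called higher. Scaling by library totals gave 34 higher, with a median of 0.18 against -0.16 for all genes. Relative to all genes the members stood at 0.339 with TMM and at 0.335 with library totals. Among the large-subunit members 39 of 43 were called higher, among the small-subunit members 22 of 31, and of the stalk Rplp0 alone. Without that replicate all 43, 29 of 31 and all 3 were called.

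Rpl22, an RNA-binding protein of the large subunit that is dispensable for most translation, had the largest interaction of a structural member at day 2. Its parental libraries went from 559, 550.4 and 566 CPM to 387, 404 and 387 CPM, and its cKO libraries from 578, 588 and 691 CPM to 695, 664 and 684 CPM (0.64 ± 0.07, adjusted p = 6.70e-10). Rpl4 went from 3198, 3251 and 3238 CPM to 2107, 2161 and 2130 CPM in parental cells and from 3263, 3286 and 3833 CPM to 3650, 3405 and 3574 CPM in the cKO (0.63 ± 0.07, adjusted p = 8.46e-10). Rpl3, a core protein near the peptidyl transferase centre, went from 1162, 1194 and 1205 CPM to 840.0, 895 and 876 CPM and from 1158, 1187 and 1386 CPM to 1417, 1344 and 1413 CPM (0.61 ± 0.07, adjusted p = 7.09e-09). In these 3 genes the parental libraries of day 2 lay below all of day 0, and the cKO libraries of day 2 lay above replicates 1 and 2 of day 0.

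For the change from day 0 to day 6 the interaction was called higher for 5 members and lower for 14, against 32.0% and 31.9% of all genes, with a median of -0.04. Leaving out that library gave 28 and 15 and a median of 0.07, and with scaling by library totals they were 2 and 47. That scaling moved the median of the members to -0.23 and that of all genes to -0.20. Relative to all genes the members stood at -0.03 under either scaling. The 5 members called higher were Rpl10l, Rpl39l, Rpl4, Rpl23 and Rps24. Of those, Rpl4, Rpl23 and Rps24 were not called when libraries were scaled by their totals, with adjusted p = 0.672, 0.77 and 0.404, each the highest over the alternatives. The lowest were 5.04e-06, 5.4e-06 and 3.73e-10. The largest negative value of a structural member was that of Rps4x, the X-linked small-subunit gene (-0.38 ± 0.08, adjusted p = 7.08e-05).

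**Figure D4:**
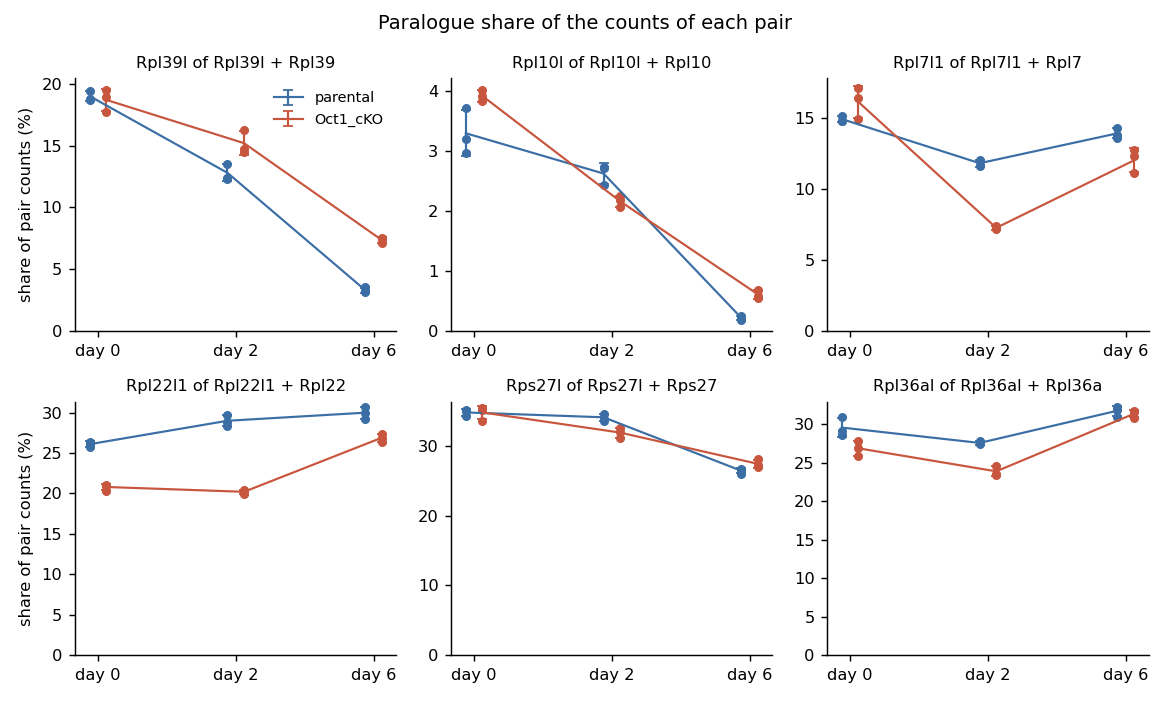
Share of a pair's counts that fell on the paralogue (y axis, %, from 0) at days 0, 2 and 6 in parental and Oct1_cKO cells, for 6 pairs; points are libraries, lines join the means and bars are 1 SD (n = 3). Rpl39l goes from 19.0% to 3.32% in parental cells and from 18.7% to 7.37% in the cKO.

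The paralogues did not move as 1 group. Shares of a pair are compared within a pair only, since the genes differ in length. Rpl39l (chr16:10170226-10174911), known from testis, where it replaces Rpl39 at the peptide exit tunnel, was among the members that fell furthest. It went from 42.7, 42.6 and 44.9 CPM at day 0 to 20.7, 18.3 and 18.1 CPM at day 2 and 3.48, 3.63 and 3.97 CPM at day 6 in parental cells. In the cKO it went from 53.8, 50.2 and 61.5 CPM to 35.5, 35.2 and 33.6 CPM and 9.52, 8.74 and 9.27 CPM. At each time all cKO libraries lay above all parental ones. The fall by day 6 was -3.55 ± 0.09 in parental cells and -2.59 ± 0.08 in the cKO, and the difference of the 2 was called (0.96 ± 0.14, adjusted p = 1.47e-07). Its share of the counts on Rpl39 and Rpl39l fell from 19.0% ± 0.385 (SD, n = 3) to 3.32% ± 0.206 in parental cells and from 18.7% ± 0.907 to 7.37% ± 0.240 in the cKO, so the parent gene did not fall in step.

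Rpl10l (chr12:66283379-66284401), a retrogene of the X-linked Rpl10 that is needed in male meiosis, had the largest fall by day 6 of the members above a mean log2 CPM of 1. It went from 26.2, 30.9 and 25.4 CPM to 1.29, 1.14 and 0.992 CPM in parental cells and from 35.1, 36.5 and 41.0 CPM to 3.27, 3.18 and 3.75 CPM in the cKO. The log2 changes were -4.58 ± 0.13 and -3.47 ± 0.11, and their difference was 1.11 ± 0.21 (adjusted p = 2.26e-05). At day 6 the cKO was therefore 1.56 ± 0.20 above parental cells (adjusted p = 5.86e-09), on 67 and 169 counts over the groups. Its share of the counts on Rpl10 and Rpl10l fell from 3.29% ± 0.381 to 0.221% ± 0.0304 and from 3.91% ± 0.0934 to 0.612% ± 0.0696.

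Rpl7l1 (chr17:46773907-46782672) differed between the lines against the direction of most members at days 2 and 6. At day 0 it was higher in the cKO (366, 356 and 381 CPM against 283, 279.6 and 282 CPM; 0.38 ± 0.04, adjusted p = 4.71e-10), and at days 2 and 6 it was lower. Its fall by day 2 was -1.02 ± 0.04 in parental cells and -1.61 ± 0.04 in the cKO, with an interaction of -0.59 ± 0.06 (adjusted p = 9.59e-11). By day 6 the interaction was -0.53 ± 0.06 (adjusted p = 6.21e-10), on 124, 124 and 123 CPM in parental and 110.5, 114 and 109.6 CPM in cKO libraries. Its share of the counts on Rpl7 and Rpl7l1 was 14.9% ± 0.188, 11.8% ± 0.234 and 13.9% ± 0.361 over the 3 times in parental cells, and 16.1% ± 1.15, 7.26% ± 0.117 and 12% ± 0.846 in the cKO.

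Rpl22l1 (chr3:28805436-28807424), which the protein Rpl22 is known to hold down, was lower in the cKO at day 0 (155, 155 and 177 CPM against 193, 195 and 203 CPM; -0.28 ± 0.05, adjusted p = 1.31e-05) and at day 6 (106, 105 and 102 CPM against 139, 139.7 and 129 CPM; -0.38 ± 0.05, adjusted p = 2.98e-08). Both sets were apart, and at day 2 it was not called (0.10 ± 0.05). Its share of the pair with Rpl22 was 26.1% ± 0.353, 29.0% ± 0.668 and 30.0% ± 0.764 in parental cells and 20.8% ± 0.403, 20.2% ± 0.252 and 26.9% ± 0.497 in the cKO. Rps27l, a known p53 target, took 34.9% of its pair with Rps27 at day 0 in both lines, and 26.5% ± 0.336 and 27.5% ± 0.621 at day 6. Rpl36al took 29.6% ± 1.24 and 31.8% ± 0.652 of its pair with Rpl36a at days 0 and 6 in parental cells, and 26.9% ± 1.0 and 31.4% ± 0.430 in the cKO. Rps4l, listed as a transcribed processed pseudogene and so no member, took 24.5% ± 1.03, 17.6% ± 0.682 and 23.2% ± 0.769 of its pair with Rps4x in parental cells, and 23.9% ± 1.43, 11.3% ± 0.683 and 27.3% ± 0.494 in the cKO. Rpl3l, the paralogue of striated muscle, had 117, 155 and 7 counts over the parental groups of days 0, 2 and 6, and 91, 114 and 3 over the cKO groups.

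The level of members with near-identical copies is uncertain, because the sources used here do not say how reads matching more than 1 gene were counted. The 115 pseudogene rows with names of this family held 0.779 to 1.30% as many counts as the members. Of the 63 tested, 21, 44 and 21 were called higher in the cKO at days 0, 2 and 6, and 0, 1 and 0 lower, with medians of 0.44, 0.74 and 0.45. Of all genes 26.4%, 33.7% and 36.7% were called higher, so the shares at days 0 and 6 lay near or below the background. Without replicate 3 of the cKO, 6 of 66 tested were higher at day 0. The same copies had a median of -1.01 from day 0 to day 6 in parental cells. Rps19bp1, the member that is no ribosomal protein, was higher in the cKO by 0.45 ± 0.08, 0.44 ± 0.09 and 0.32 ± 0.09 at the 3 times. Rpl9-ps6 and Rpl10-ps3, counted as members, had 95 and 24 counts over the parental libraries of day 0.

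Fau, outside the naming rule, was read beside the family. This gene, which encodes a small-subunit protein fused to a ubiquitin-like domain, was higher in the cKO by 0.52 ± 0.11, 0.69 ± 0.11 and 0.63 ± 0.11 at days 0, 2 and 6. All 3 values were called, with adjusted p between 5.68e-05 and 8.63e-04.

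Other genes of ribosome production also fell during differentiation. By day 2 in the cKO each list below had a lower median than the members, at -0.19 (-0.08 without replicate 3 of day 0). Over all genes, 37.7% were called lower and 43.2% higher by day 2 in parental cells, and 40.2% and 45.3% by day 6. In the cKO these shares were 35.5% and 41.0% by day 2, and 40.4% and 41.4% by day 6. Of 35 ribosome biogenesis genes, 33 were lower and 1 higher by day 2 in parental cells (median -1.19) and 35 were lower by day 6 (median -1.50). In the cKO 32 were lower and 2 higher by day 2 (median -1.13), and 34 lower and 1 higher by day 6 (median -1.27). Of 14 genes of RNA polymerase I, which makes the large rRNA precursor, 14 were lower at both times in parental cells, and 12 and 13 in the cKO. Of 20 elongation and other 5′TOP genes, 19 were lower and 1 higher by day 2 in parental cells (median -0.69), and 14 lower and 4 higher in the cKO (median -0.27). Of 78 mitochondrial ribosomal protein genes, 63 were lower and 2 higher by day 2 in parental cells and 58 lower and 7 higher in the cKO, with medians of -0.50 in both. Leaving out replicate 3 of the cKO at day 0 gave 32 lower and 3 higher (biogenesis), 13 and 4 (5′TOP) and 56 and 9 (mitochondrial) in the cKO by day 2.

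Between the lines at day 2, 33.7% of all genes were called higher in the cKO and 33.6% lower, with a median of -0.01. The 5′TOP list had 20 of 20 genes called higher (median 0.59), and the biogenesis list 23 of 35 higher and 3 lower (median 0.37). The mitochondrial list had 34 of 78 higher and 17 lower (median 0.09). Gas5, a 5′TOP host of small nucleolar RNAs, had a mean of 198 CPM in parental and 573 CPM in cKO libraries (1.54 ± 0.04, adjusted p = 6.67e-27). Nop56, a core protein of box C/D nucleolar particles, had 237 and 507 CPM (1.1 ± 0.05, adjusted p = 5.19e-22). Between RNA polymerase I genes the calls were divided, with 5 of 14 higher and 4 lower (median -0.03). At day 0, when 26.4% of all genes were called higher and 27.0% lower, the 5′TOP list had 14 genes higher and 3 lower. The biogenesis list had 22 higher and 5 lower. Without replicate 3 of the cKO the counts were 14 and 3, and 19 and 5.

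**Figure D5:**
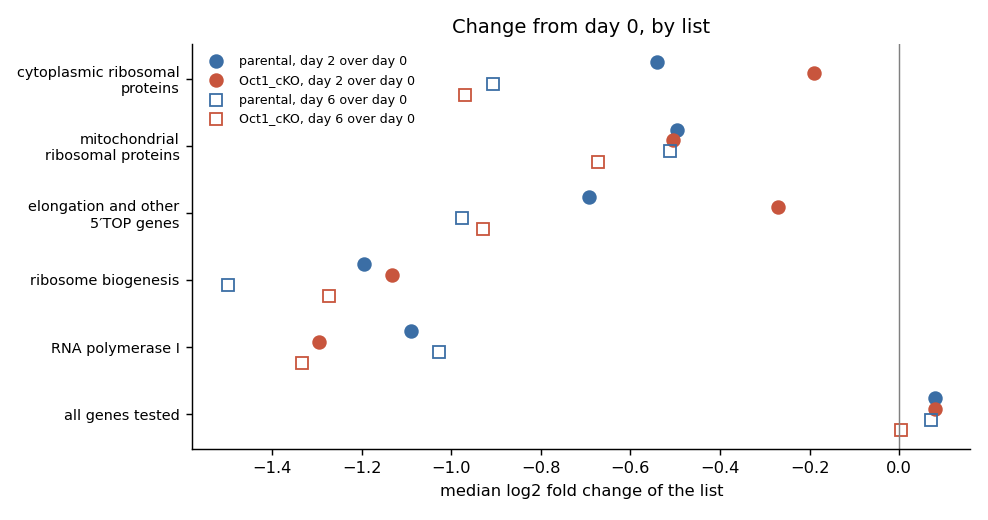
Median log2 fold change from day 0 (x axis) of the ribosomal protein genes, of 4 related lists and of all genes tested; circles are day 2, open squares day 6, by line. The members' median at day 2 is -0.54 in parental cells and -0.19 in the cKO, and the mitochondrial list has -0.50 in both.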

How the data were processed

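The deposited table holds raw counts per Ensembl gene for the 18 libraries, not normalized by the authors. The labels' protocols name trypsin for harvest, Trysol for RNA and standard Illumina library preparation. The submitters' processing notes list Novoalign, DESeq2 1.10.0 and the builds mm10 and GRCm38, with no roles. The read counter, its annotation release and its strand setting were not given there. Coordinates are GENCODE M21 (GRCm38), matched by Ensembl ID for all 89 members.

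Counts were fitted once over 18 libraries with a coefficient per group in edgeR 4.0.16 (R 4.3.3): TMM, filterByExpr (minimum count 10, total 15), the robust quasi-likelihood test and Benjamini-Hochberg adjustment over 18352 genes in each of 9 comparisons, called under 0.05. DESeq2 1.42.0 was an alternative. The calculation was tested on simulated counts. Fold changes are log2, with SE.

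Members, lists and the split by chromosome were chosen with earlier results of these data known. Named genes are a fixed list of members; the 3 called members with the largest rise and fall in each comparison (mean log2 CPM at least 1, no overlap between groups); the 3 largest interactions; and up to 3 genes a list by adjusted p. Other members, such as Rps2, Rps12 and Rps24, were named outside these rules. Rpl36a-ps1 was not tested. The motif CCGGAAGT was added later.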

Additional observations from a re-analysis of the deposited data

Results flagged for a closer look

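The change from day 0 to day 2 differed between the parental line and the cKO by the interaction term of the edgeR fit. That term was called higher for 66 members and lower for 2, against 30.1% and 26.9% of all genes. Scaling by library totals gave 34 higher. Among the structural members the largest values were those of Rpl22 (0.64), Rpl4 (0.63) and Rpl3 (0.61), all large-subunit genes. Their parental libraries fell, while their cKO libraries of day 2 stayed above replicates 1 and 2 of day 0. Replicate 3 of day 0 lay above all cKO libraries of day 2 for Rpl4, and within their range for Rpl22 and Rpl3.

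The change from day 0 to day 6 differed for fewer members, 5 called higher and 14 lower. These are 5.68% and 15.9% of the members, below the 32.0% and 31.9% of all genes. The counts moved with the processing. Leaving out the undifferentiated cKO library that stood above its group gave 28 higher and 15 lower. Scaling by library totals gave 2 higher and 47 lower. Among the called members the largest values in size were those of the paralogues Rpl10l (1.11) and Rpl39l (0.96), which fell less in the cKO, and Rpl7l1 (-0.53), which fell more.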

How the results depend on the processing

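No paired analysis was possible because the labels give no replicate numbers. The replicate numbers used here follow the order of the deposited columns within each group. Fits that leave out a library pool the spread over all groups. Members called lower in the cKO at day 0 numbered 4 with only the groups compared, 1 outside chromosome 11 and 4 to 8 with 1 library left out; at day 2 they numbered 2 with library totals and 0 among structural members. At day 6, 25 were higher and 16 lower with library totals, and 4 were lower with DESeq2 size factors, with no filter and outside chromosome 11, 5 with DESeq2 and 4 to 9 with 1 library left out. Library totals also gave 10 higher and 17 lower for day 2 against day 0 in the cKO. They gave 34 higher for the day 2 interaction, and 2 higher and 47 lower for the day 6 interaction. For these interactions they also moved the median of all genes, to -0.16 and -0.20. Rpl26 at day 2 turned to -0.0603 with library totals (adjusted p = 0.324). With 1 library left out, the members called higher in the cKO were 60 to 75, 77 to 82 and 43 to 65 at days 0, 2 and 6. In the cKO, day 2 against day 0 gave 0 to 10 higher and 37 to 63 lower. The day 2 interaction gave 50 to 78 higher and 1 to 2 lower, and the day 6 interaction 3 to 28 higher and 10 to 21 lower.

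On the TMM-scaled denominator the share differences were 2.22 (cKO against parental, day 2), 0.505 (day 6), -1.81 (parental, day 2 against day 0), -2.77 (parental, day 6) and -0.768 percentage points (cKO, day 2). Without mitochondrial counts the parental day 6 difference was -2.33. With 1 library left out, the share differences between the lines were 0.572 to 1.29, 1.66 to 1.79 and -0.0509 to 0.0845 at days 0, 2 and 6. Those from day 0 were -0.737 to -0.665 and -2.29 to -2.22 in parental cells, and -0.282 to 0.437 and -3.50 to -2.78 in the cKO. Of the values for single genes, 1029 kept direction and call, 56 lost the call and 1 reversed; the cause was not tested.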

Other observations

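Of 17 mTOR and Myc regulators of ribosome production, 4 were called higher and 6 lower in the cKO at day 0, 6 and 6 at day 2, and 8 and 5 at day 6. Over all genes 26.4% and 27.0%, 33.7% and 33.6%, and 36.7% and 37.8% were called higher and lower at these times. From day 0 to day 2, 5 of the 17 were higher and 11 lower in parental cells (median -0.29) and 4 higher and 11 lower in the cKO (median -0.34). By day 6, 4 were higher and 10 lower in parental cells (median -0.25), and 7 higher and 6 lower in the cKO. Mycn, a transcription factor known to drive ribosome production, was at 190.1, 199 and 185 CPM in parental and 113, 119 and 121 CPM in cKO libraries at day 0 (-0.70 ± 0.05, adjusted p = 5.91e-15). At day 2 Mycn was at 14.2, 13.4 and 14.2 CPM and at 26.6, 29.0 and 31.5 CPM (1.05 ± 0.07, adjusted p = 3.71e-16), and at day 6 it was lower again in the cKO (-0.88 ± 0.05, adjusted p = 4.9e-18). Myc differed the other way each time: by 0.67 ± 0.08 at day 0, -0.85 ± 0.11 at day 2 and 1.37 ± 0.07 at day 6, where its libraries lay at 15.7 to 16.4 CPM and at 39.9 to 44.0 CPM (adjusted p = 8.96e-20). The groups did not overlap in any of these comparisons. Of 8 genes of the Mdm2 and p53 response to ribosomal stress, 3, 4 and 3 were called higher in the cKO at days 0, 2 and 6. Called lower were 2, 2 and 3, beside the shares of all genes given above for these times. Trp53, on chromosome 11, was lower in the cKO by day 6, with means of 226 and 48.5 CPM (-2.22 ± 0.05, adjusted p = 2.29e-31), and Mdm2, which degrades its protein, was higher, with means of 163 and 264 CPM (0.70 ± 0.04, adjusted p = 3.11e-17).

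The sequence CCGGAAGT, known from ETS factor binding and searched on both strands of the 300-base promoters after the values were seen, was present in 12 of 66 members (18.2%) and in 1164 of 27025 genes (4.31%). The match is a description of the letters only.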
